A study of Caenorhabditis elegans with 2 samples.

Results

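The histone genes of the nematode Caenorhabditis elegans were described in a chromatin immunoprecipitation sequencing (ChIP-seq) experiment on NHR-28, a transcription factor of the nuclear hormone receptor type. Members were the protein-coding genes of the WBcel235 (ce11) annotation with the symbols his-N, hil-N or htz-1, which gave 81 of 19973 protein-coding genes on the 6 nuclear chromosomes. The core class came from the protein each encodes. The 65 his-N genes of a core class other than his-69 to his-74 were called replication-dependent by symbol alone. They comprise 17 genes for H2A, 17 for H2B, 15 for H3 and 16 for H4. The timing of their expression was not measured here. Among them his-35, his-37 and his-41 have 2 coding exons and his-57 has 3. A further 7 were variant genes (htz-1 and the H3-type genes his-69 to his-74), and 9 were linker histone (H1) genes (his-24 and hil-1 to hil-8). The 2 libraries, labelled biological replicates 1 and 2, came from whole mixed-stage embryos, male and female together, of strain OP317 with genotype unc-119(ed3) III; wgIs317. The immunoprecipitated protein was NHR-28 fused to eGFP, carried by the wgIs317 insertion. Both libraries share every allele and belong to 1 group, no untagged embryos were analysed here, and signal is an average over all cells of the embryos.

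The authors deposited 4 lists of regions on ce11. The strictest, which passed the irreproducible discovery rate (IDR) step, a filter on how well regions repeat between lists, holds 238 regions. Relaxed lists, which keep peaks and background, hold 30000 regions for both replicates pooled, 14746 for replicate 1 and 4556 for replicate 2. The authors' q-value was 0.05 or less for only 349 regions of replicate 1 and 236 of replicate 2. At histone genes those lay only at hil-7 and his-37 in replicate 1 and at htz-1 in replicate 2. Each region carries the authors' signal value, its strength against a control, and a summit, its point of highest signal. The lowest signal is 56.43 in the IDR list, 12.84 in the pooled list, 10.35 in replicate 1 and 13.75 in replicate 2, so values are compared within a list. A gene was counted when its annotated 5' end lay within 1000 bp of a summit, also where another gene was nearer, and was given the strongest such region. Read totals do not appear in the lists or labels, so library depth is unknown. With 1 group there is no test between conditions, and every comparison below is a description of these lists.

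Core histones form the octamer around which DNA is wrapped, and linker histones bind the DNA between nucleosomes. Replication-dependent copies are transcribed mainly while DNA is copied, and in C. elegans they lie in small clusters of near-identical genes in which neighbours are often transcribed away from each other from a common spacer. Variants such as the H2A.Z protein of htz-1 and the H3.3 proteins, encoded by several genes that include his-71 and his-72, are also deposited outside replication.

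The DNA at 4 summits is shown first, because these genes are among the 6 with a region in both replicates. The summits printed for htz-1 and his-71 lay in a region of both replicates. That of his-37 lay in a region of replicate 1 only, and that of his-72 in a region of replicate 2 only. Each line holds 121 bases of the reference genome, 5' to 3' on the strand of the histone gene, centred on the pooled summit. Capitals mark matches, on either strand, to the TATA box core TATAAA, the CAAT box CCAAT, the nuclear receptor element AGGTCA with its longer form AAGGTCA, the GA repeat GAGAGA, or the element GGGGACAC described further on. The windows are V:9546921-9547041 for the H4 gene his-37 and IV:4445852-4445972 for htz-1, both on the plus strand, and X:7982616-7982736 for his-71 and III:12369522-12369642 for his-72, both on the minus strand. None overlaps an annotated UTR.
his-37: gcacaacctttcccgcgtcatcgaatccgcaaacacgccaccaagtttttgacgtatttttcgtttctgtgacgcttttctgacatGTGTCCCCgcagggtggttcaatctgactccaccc
htz-1: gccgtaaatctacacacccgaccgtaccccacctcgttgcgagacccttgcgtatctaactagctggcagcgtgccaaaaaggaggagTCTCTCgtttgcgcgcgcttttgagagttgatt
his-71: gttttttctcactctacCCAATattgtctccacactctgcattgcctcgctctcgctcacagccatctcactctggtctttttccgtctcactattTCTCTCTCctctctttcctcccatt
his-72: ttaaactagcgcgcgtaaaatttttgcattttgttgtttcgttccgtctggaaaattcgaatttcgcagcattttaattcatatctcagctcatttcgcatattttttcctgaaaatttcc

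The middle 121 bases of 4 spacers between divergent H3 and H4 genes are shown to compare spacers with and without a region. All are written from the H4 gene towards the H3 gene. The whole spacers of his-38/his-40 (printed X:7309932-7310052, plus strand) and his-31/his-32 (printed IV:8334084-8334204, plus strand) held a pooled summit. It lay inside the printed bases of his-38/his-40, at 7309966. At his-31/his-32 the pooled summit, 8334213, and the replicate 1 summit, 8334061, lay outside the printed bases. The whole spacers of his-2/his-1 (printed V:16042341-16042461, minus strand) and his-50/his-49 (printed V:8847763-8847883, plus strand) held no summit in any list.
his-38/his-40: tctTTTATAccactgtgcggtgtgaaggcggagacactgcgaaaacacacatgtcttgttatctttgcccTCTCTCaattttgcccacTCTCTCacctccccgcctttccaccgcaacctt
his-31/his-32: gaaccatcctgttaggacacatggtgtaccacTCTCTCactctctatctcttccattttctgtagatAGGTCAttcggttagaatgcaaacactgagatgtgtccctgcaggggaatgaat
his-2/his-1: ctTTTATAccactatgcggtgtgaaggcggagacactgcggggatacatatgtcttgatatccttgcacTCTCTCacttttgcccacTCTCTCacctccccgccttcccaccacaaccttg
his-50/his-49: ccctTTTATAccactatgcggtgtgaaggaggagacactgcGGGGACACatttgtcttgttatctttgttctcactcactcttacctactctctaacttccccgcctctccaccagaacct

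The whole his-38/his-40 spacer is 90.17% identical to that of his-2/his-1, and both show the TATAAA match on the side of the H4 gene and 2 GAGAGA matches. All 36-mers of both spacers occur once in the genome. By contrast, no 36-mer of the his-50/his-49 spacer does, since the spacer of his-28/his-27 is an identical copy.

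Histone genes were found less often in the pooled list than protein-coding genes at large, and the lower share was that of the replication-dependent copies. Of 81 histone genes, 22 (27.2%) had a pooled summit, against 51% of all 19973 protein-coding genes. In replicate 1 the count was 16 (19.8%) against 29.9% of all genes, and in replicate 2 it was 10 (12.3%) against 11.8%. Both replicates had a summit at 6 histone genes (7.41%) against 6.74% of all genes. In the IDR list the count was 1 gene, his-37 (1.23%), against 0.801% of all genes. The shares in replicate 2, in both replicates and in the IDR list thus lie near the background, while those in the pooled and replicate 1 lists lie below it. A region of at least 1 of the 3 relaxed lists lay at 26 histone genes (32.1%), against 56.1% of all genes. The 55 histone genes without one comprise 50 replication-dependent, 3 linker and 2 variant genes. Of all 19973 genes, 8771 had none.

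By kind, 11 of 65 replication-dependent genes (16.9%) had a pooled summit, against 5 of 7 variant genes (71.4%) and 6 of 9 linker genes (66.7%). In replicate 1 the counts were 8, 3 and 5 genes in the same order (12.3%, 42.9% and 55.6%), against 29.9% of all genes. In replicate 2 they were 5, 4 and 1 (7.69%, 57.1% and 11.1%), against 11.8%. In the pooled list the variant and linker genes were thus above the 51% background and the replication-dependent genes below it. Counting only the gene nearest to each summit, the shares were 9.23% of replication-dependent, 42.9% of variant and 66.7% of linker genes against 45.2% of all genes, which puts the variant genes (3 of 7) below the background. In replicate 2 the linker share, 11.1%, was also not above the 11.8% of all genes. Within the replication-dependent classes the pooled list held 3 of 17 H2A (17.6%), 1 of 17 H2B (5.88%), 3 of 15 H3 (20%) and 4 of 16 H4 genes (25%), all below 51%. Where a histone gene had a pooled region, its median signal was 20.25, against 18 over all genes with one. The strongest pooled summit lay upstream of the 5' end at 16 of these 22 genes (72.7%) against 60.1% of all genes with a pooled region, at a median distance of 310.5 bp against 421 bp. At his-67/his-68, his-31/his-32 and his-38/his-40 a single region in the short spacer lay upstream of both genes. Each such region enters both values once per gene.

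**Figure D1:**
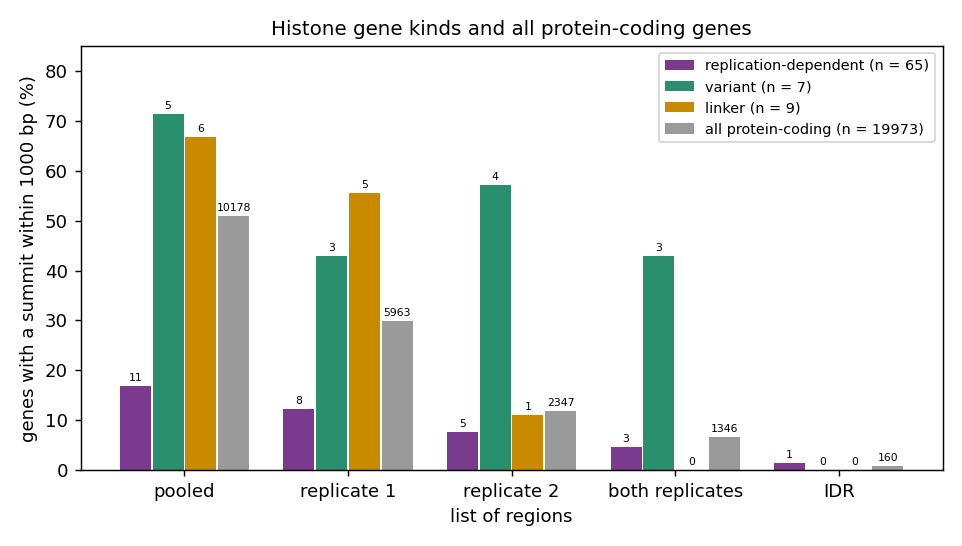
Share of genes (%) with a summit within 1000 bp of the 5' end in each list, for replication-dependent, variant and linker histone genes and for all protein-coding genes, with the number of genes on each bar. In the pooled list the replication-dependent genes stand at 16.9%, under the 51% of all genes, while the variant genes (71.4%, though 42.9% against 45.2% by the nearest gene alone) and linker genes (66.7%) stand over it.

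Much of the replication-dependent gene set is repeated sequence, in which a short read can match several places. As a measure, every 36-mer within 1000 bp of each 5' end was looked up in the genome. The median share of 36-mers that occur once was 26% at the replication-dependent genes, 99.9% at the linker and variant genes and 100% at all protein-coding genes. At 16 histone genes it was 0%, and none of them had a pooled summit. The labels do not state how reads matching several sites were placed, and the part of repeated sequence in the counts was not tested.

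Pooled summits were sparse where most 36-mers were repeated, in histone genes and in all genes. With under 20% of 36-mers occurring once, 0 of 29 histone genes had a pooled summit, against 2 of 275 of all genes (0.727%). From 20 to 50% the count was 2 of 12 histone genes (16.7%) against 8.6% of all genes, and from 50 to 80% it was 0 of 9 against 29.9%. From 80 to 95% it was 6 of 17 (35.3%) against 45.1%. At 95% or more, 14 of 14 histone genes had a pooled summit, against 54.8% of all genes, and 9 of them had one in replicate 1 (64.3% against 32.7%) and 7 in replicate 2 (50% against 12.9%). These 14 were 11 linker and variant genes together with his-35, his-41 and his-37. Among them htz-1, his-69, his-35 and his-41 counted only through pooled regions that lay nearer to another gene. All genes were counted by the same rule. With 50-mers in place of 36-mers the highest bin held 17 of 21 histone genes (81% against 54.5%). These bins were drawn after the counts were seen.

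**Figure D2:**
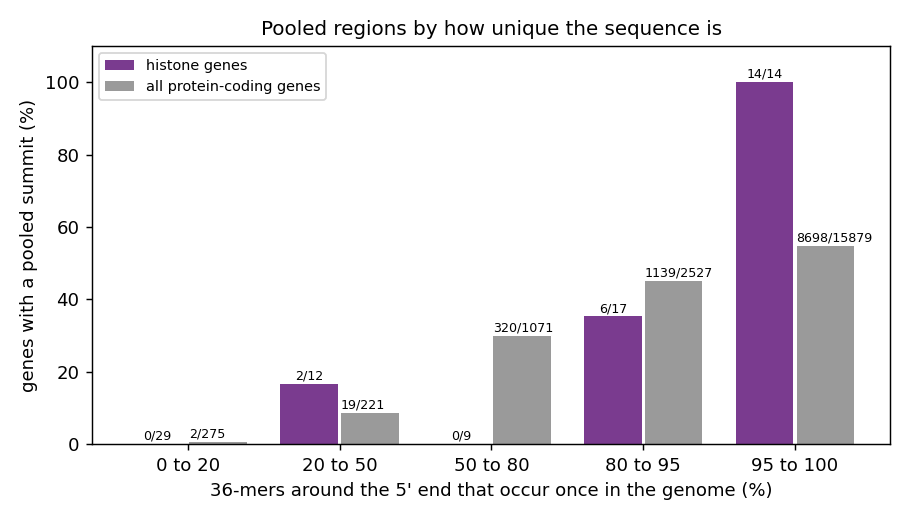
Share of genes (%) with a pooled summit, by the share (%) of 36-mers within 1000 bp of the 5' end that occur once in the genome, for histone genes and for all protein-coding genes, with genes found over genes present on each bar. Histone genes stand at 0 of 29 in the lowest bin and at 14 of 14 in the highest. In the highest, htz-1, his-69, his-35 and his-41 count only through regions nearer to another gene.

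All 65 replication-dependent genes lay in clusters, defined by gaps of at most 10000 bp between histone genes. With the H3 variants his-69 and his-70, which form a cluster of their own, 67 histone genes made up 14 clusters that span 62001 bp, and the other 14 histone genes stood alone. Of the clustered genes 12 (17.9%) had a pooled summit, and of the single genes 10 (71.4%), against 51% of all genes. Within the cluster spans the pooled list held 5 summits, or 8.06 per 100 kb, against 29.9 per 100 kb over the nuclear genome. Replicate 1 gave 8.06 per 100 kb in the clusters against 14.7, and replicate 2 gave 3.23 against 4.52. In 7 clusters, which hold 35 genes, no gene had a pooled summit.

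The cluster with the most genes and no region was that of 8 genes from his-28 to his-18 on V, from 8889488 to 8898539, in which 1.076% of 36-mers occur once. The neighbouring cluster of 6 genes from his-50 to his-53, from 8847393 to 8854053 on V, also had no region, and none of its 36-mers occurs once. On II, 13 genes from his-16 to his-42 lie between 13817760 and 13828697, with 7.053% of 36-mers occurring once. Here only the outermost genes were reached. A replicate 2 region of signal 15.58 lay 883 bp downstream of the 5' end of his-16, beyond the end of that gene, and a pooled region of 14.04 lay 713 bp upstream of the H3 gene his-42, within 200 bp of the snRNA gene C47F8.9.

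The 6-gene cluster on IV, from 8331044 to 8336340, holds repeated and unique spacers side by side. Its outer H2A-H2B spacers, his-29/his-30 and his-33/his-34, are identical copies, and between them lies the his-31/his-32 spacer, in which all 36-mers occur once. Pooled signal of 16.41 and replicate 1 signal of 10.54 were found in this middle spacer, and no list had a summit in the outer ones. That replicate 1 value lay near the list's lowest, 10.35. A replicate 1 region of 10.86 lay 984 bp from his-30, but 176 bp from the lysozyme-type gene lys-10.

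**Figure D3:**
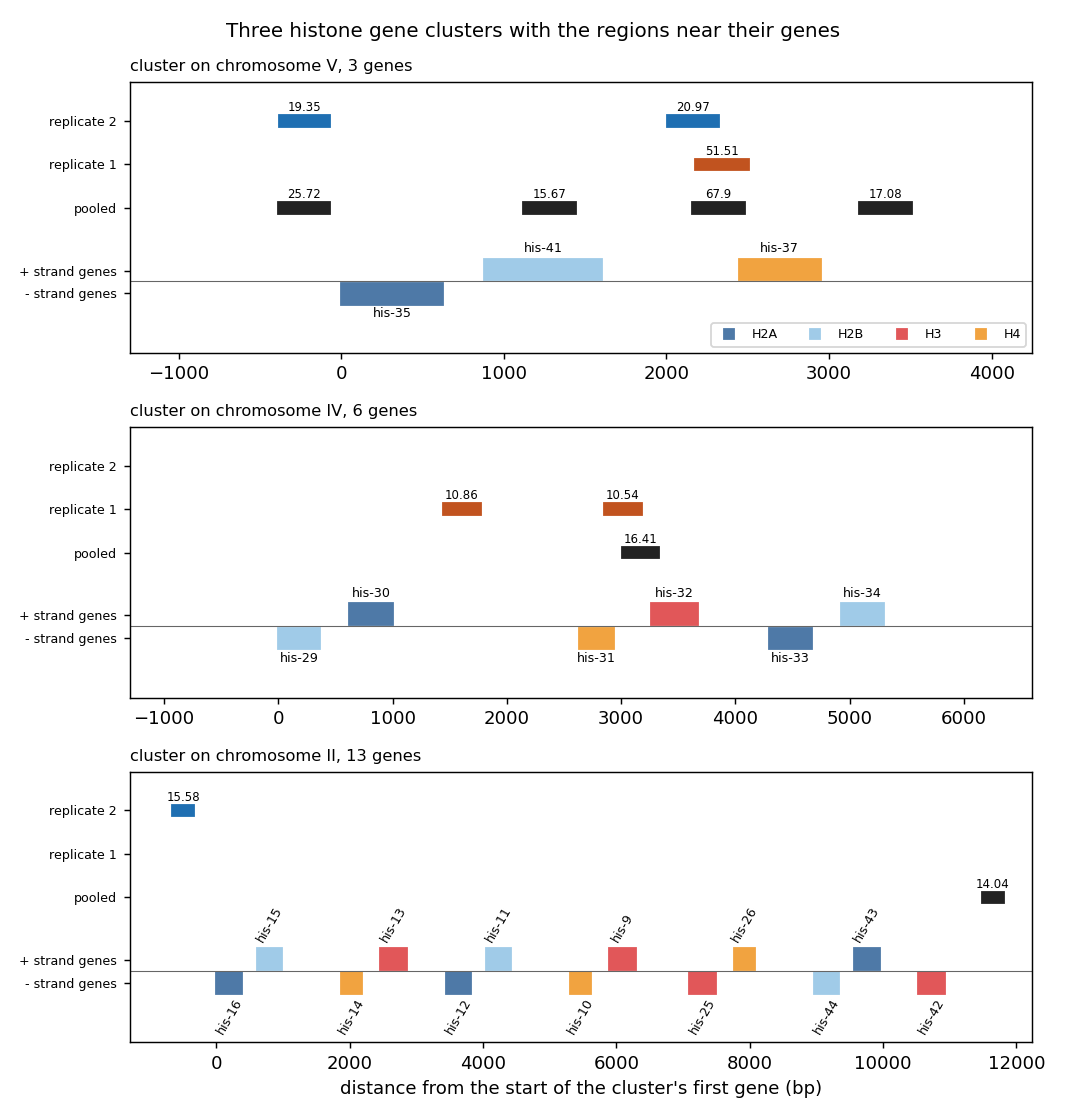
Histone genes (boxes, coloured by class, plus strand above the line) and regions near them (bars by list, with the authors' signal) in 3 clusters on V, IV and II, against the distance in bp from the start of the cluster's first gene. The strongest region, of pooled signal 67.9, lies before his-37 on V, while the 13 genes on II have regions only beyond their outer ends.

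Most core histone genes stood in divergent pairs whose 5' ends face a short spacer. There were 31 such pairs with 62 genes, of which 16 joined H2A with H2B, 14 joined H3 with H4 and 1, his-67/his-68, joined H4 with H2A. Spacers measured 227 to 368 bp, with a median of 258 bp, so 1 region can lie within 1000 bp of both genes, and the genes of a pair are not independent. Of the 5 pairs with a pooled summit at either gene, 3 had the same strongest region at both. In 17 spacers no 36-mer occurs once, and in 16 the whole spacer has at least 1 identical copy. No list had a summit in those 17 spacers, nor in the 6 in which some 36-mers occur once. Of the 8 spacers in which all 36-mers occur once, 3 held a pooled summit and 4 held a summit in some list.

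The 4 pairs with a summit in the spacer were his-67/his-68, his-31/his-32, his-38/his-40 and his-60/his-59. At his-67 (H4) and his-68 (H2A), on I from 9988452 to 9989515, signal was 45.4 in the pooled list (rank 385), 26.02 in replicate 1 and 17.93 in replicate 2. The summits of the 3 lists were at 9988998, 9988935 and 9988999, all inside the spacer, and the Argonaute gene alg-5 was the nearest other gene, 804 bp from the pooled summit. At his-38 (H4) and his-40 (H3) on X the pooled signal was 15.32, with no region in either replicate list. At his-60 (H4) and his-59 (H3) on IV replicate 1 had a region of 16.95, with none in the pooled or replicate 2 lists. Thus 1 of the 4 spacers had a summit in both replicates. The other 4 pairs with an equally unique spacer, his-61/his-62, his-4/his-3, his-2/his-1 and his-35/his-41, had no summit in theirs.

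The only histone gene in the IDR list was his-37, an H4 gene on V from 9547105 to 9547607, plus strand. Its protein is 100% identical to that of the H4 gene his-1, and its model differs from most replication-dependent genes in having 2 coding exons. The region, V 9546819 to 9547142, had a signal of 67.9 in the IDR and pooled lists, rank 157 in both, with its summit 124 bp upstream of the 5' end. In replicate 1 the signal was 51.51 (rank 57) with a summit 104 bp upstream, and in replicate 2 it was 20.97 (rank 620) with a summit 284 bp upstream. The replicate 2 region ended at 9546980, 1 position before the pooled summit at 9546981, so the pooled summit lay in a region of replicate 1 only. The nearest other protein-coding gene was C50F4.6, 889 bp away, and no annotated RNA gene lay within 200 bp. All 36-mers within 1000 bp of the his-37 5' end occur once.

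The H2A gene his-35 and the H2B gene his-41 share the cluster with his-37, and their regions lay nearer to other genes. The strongest at his-35 had a signal of 25.72 pooled and 19.35 in replicate 2, 858 bp from its 5' end in the pooled list, and was 204 bp from the spindle checkpoint gene mdf-1. The pooled region at his-41, of 15.67, lay 404 bp downstream of its 5' end and 152 bp from C50F4.6. The his-35/his-41 spacer itself held no summit. Models of these 3 genes and of his-57 are longer than their coding sequence. All 4 have 2 or 3 coding exons, so introns count in that length, and whether they include UTRs was not examined. The other 61 replication-dependent models consist of coding sequence alone, in 1 exon. The annotated 5' end of those 61 is therefore the start codon. Pooled summits were found at 3 of the 4 longer models and at 8 of the 61, with 51% of all genes as background. This contrast equally separates genes with introns from genes without.

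The remaining replication-dependent hit was his-47 (H2A, IV), with a pooled signal of 16.34 at 972 bp downstream of its 5' end and no replicate region. In some relaxed list 15 of the 65 replication-dependent genes (23.1%) had a region, against 56.1% of all genes. Of these 15, 3 had one in both replicates (4.62% of the 65, against 6.74% of all genes). The 3 were his-37 and the pair his-67 and his-68, which share their regions. Their pooled values were the highest of these genes, and the next, at his-35, was 25.72, as the plot of signal by gene shows.

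**Figure D4:**
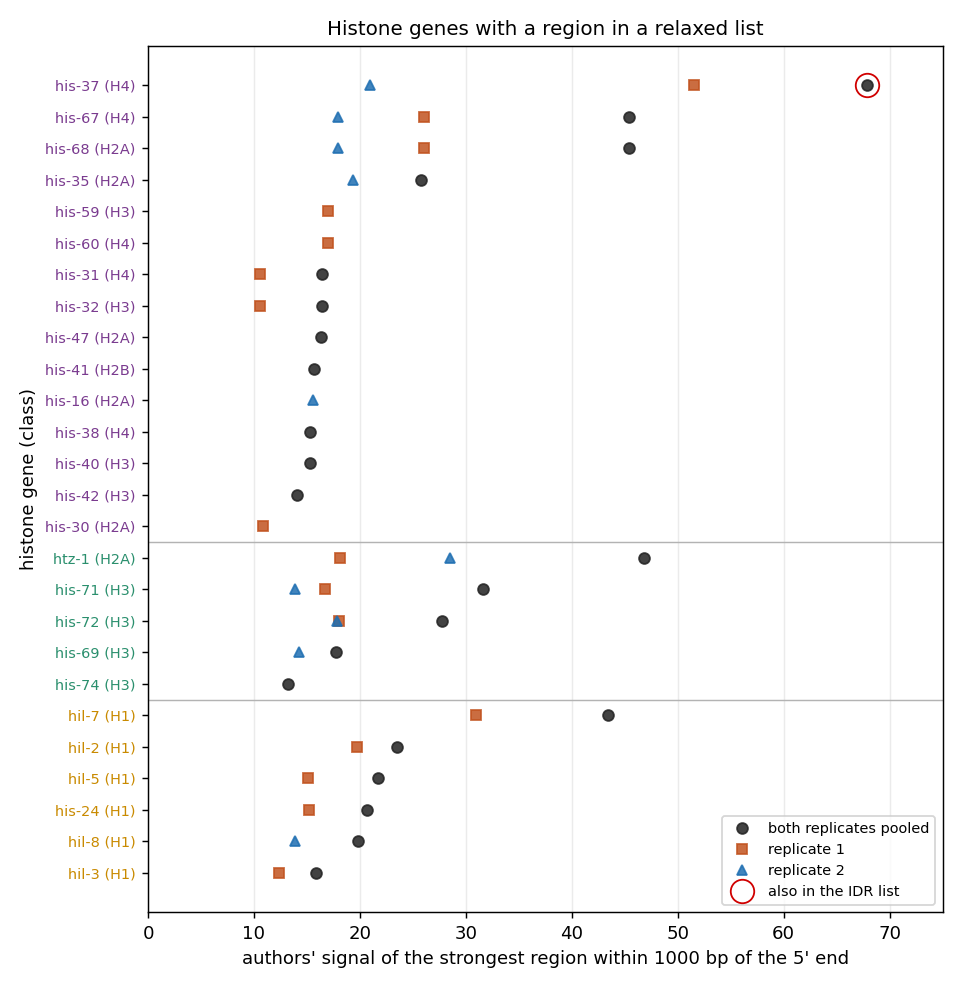
The authors' signal of the strongest region within 1000 bp of the 5' end, for the 26 histone genes with a region in a relaxed list, with 1 symbol per list and a ring for the IDR list. Gene names run down the page by kind, replication-dependent first, then variant and linker. A missing symbol means no region in that list, and his-37 has the highest pooled value, 67.9, followed by htz-1 with 46.86.

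Among the variants, htz-1, the H2A.Z gene, had the highest signal. The gene lies on IV from 4446216 to 4446999, and its pooled region of 46.86 (rank 348) had its summit 304 bp upstream. The signal was 18.1 in replicate 1, 370 bp upstream, and 28.51 in replicate 2, 291 bp upstream. Replicate 2 was the higher for this gene in rank as well, 233 against 1619 in replicate 1. The 5' end of wapl-1, whose product is known for releasing cohesin from chromosomes, lay nearer, 172 bp from the pooled summit. Another pooled region of 25.77 lay 989 bp downstream and 126 bp from chat-1, and one of 14.71 lay 897 bp upstream.

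The H3-type variant genes his-71 and his-72 were found in each relaxed list. At his-71 (X, 7981382 to 7982070, minus strand) signal was 31.65 pooled, 16.74 in replicate 1 and 13.9 in replicate 2, with summits 606, 568 and 641 bp upstream and no other gene within 1000 bp. Its replicate 2 value lay near that list's lowest, 13.75, at rank 4331 of 4556, so its place among the genes in both replicates rests on a weak region. At his-72 (III, 12367475 to 12369050, minus strand) the strongest values were 27.74 pooled, 18 in replicate 1 and 17.82 in replicate 2. The his-72 summits fell at separate places. Pooled regions lay 532 bp and 8 bp upstream (27.74 and 19.84), the replicate 1 region lay 67 bp upstream, and the replicate 2 regions lay 512 bp upstream and 133 bp downstream (17.82 and 16.74). The strongest region of each replicate at his-72 was thus not the same region, and the pooled summit that both replicates covered was the one 8 bp upstream.

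The other H3-type variants had weak regions or none. At his-69 (III) the pooled signal was 17.71 and the replicate 2 signal 14.21, but rcq-5, a RecQ-type helicase gene, lay nearer, 223 bp from the pooled summit against 990 bp. At his-74 (V) a pooled region of 13.19 lay 434 bp upstream, near the list's lowest value. No list had a region at his-70 or at his-73, whose annotated protein is only 46 residues long.

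Of the 9 linker histone genes, 6 were in the pooled list (66.7% against 51% of all genes), 5 in replicate 1 (55.6% against 29.9%) and 1 in replicate 2 (11.1% against 11.8%). None was in both replicates, against 6.74% of all genes. The highest was hil-7 (IV, 6646312 to 6646972), with 43.41 pooled (rank 435) at 146 bp upstream and 30.95 in replicate 1 (rank 265) at 172 bp upstream. No replicate 2 region lay near hil-7, and the non-coding RNA gene C01B10.45 is annotated within 200 bp of the pooled summit. This gene had 4 pooled regions within 1000 bp, the others of 16.16, 20.16 and 23.47.

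At hil-2 (IV) the pooled signal was 23.47 and the replicate 1 signal 19.75, with the miRNA gene cel-mir-8201 within 200 bp of the pooled summit. At hil-5 (I) they were 21.69 and 15.09, and at hil-3 (X) 15.83 and 12.32. For his-24, an H1 gene known for a role in germline silencing (X, 14490094 to 14491119), the pooled signal was 20.66 at 25 bp upstream, beside the non-coding RNA gene M163.19. Its replicate 1 region of 15.15 lay elsewhere, 786 bp downstream. The reverse pattern was seen at hil-8 (I), with 19.85 pooled, 13.85 in replicate 2 (near that list's lowest, 13.75) and none in replicate 1. No list had a summit within 1000 bp of the 5' end of hil-1, hil-4 or hil-6, all on V, though 1 replicate 1 summit lay further inside the 3023 bp hil-1 gene. Around these 5' ends 78.79%, 92.37% and 91.2% of 36-mers occur once.

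Promoters of histone genes differed in letters from those at large. In the window from 250 bp before to 50 bp after the 5' end, the median GC content was 48% at replication-dependent genes, 42% at linker genes and 33.67% at variant genes, against 34.33% at all protein-coding genes. The motif TATAAA, the core of the TATA box, was found on either strand in 44 of 65 replication-dependent promoters (67.7%) and in 37.9% of all promoters. GAGAGA was found in 32 (49.2%) against 21.8%, and CCAAT in 33 (50.8%) against 45.5%. The 65 promoters held 44 distinct sequences, those with TATAAA 29, those with GAGAGA 21 and those with CCAAT 24. Copies and shared spacers thus count several times in these shares and in the GC median. For AGGTCA, the element many nuclear receptors bind, the count was 2 (3.08%), both from the shared his-31/his-32 spacer, against 8.27% of all promoters. Its longer form AAGGTCA, which contains it, was in none of the 81 histone promoters and in 3.04% of all promoters. No AGGTCA match stood in the printed windows of his-37, htz-1, his-71 or his-72.

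An 8-base element chosen after the printed sequences were seen, GGGGACAC, was held by 43 replication-dependent promoters (66.2%) and 1 linker promoter, his-24, against 107 of all 19973 promoters (0.536%). It was spread over 13 H2A, 12 H2B, 8 H3 and 10 H4 genes. Identical copies and shared spacers count several times here, and the 43 promoters held 24 distinct sequences. It stands in the his-37 window, on the minus strand, and in the his-50/his-49 spacer. A pooled summit was found at 4 of the 43 genes that hold it (his-67, his-68, his-47 and his-37) and at 7 of the 22 that lack it. Both shares lay below the 51% of all genes. The genes that hold it include all those of the 8-gene and 6-gene clusters on V without a region, and its part in the counts was not tested.

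**Figure D5:**
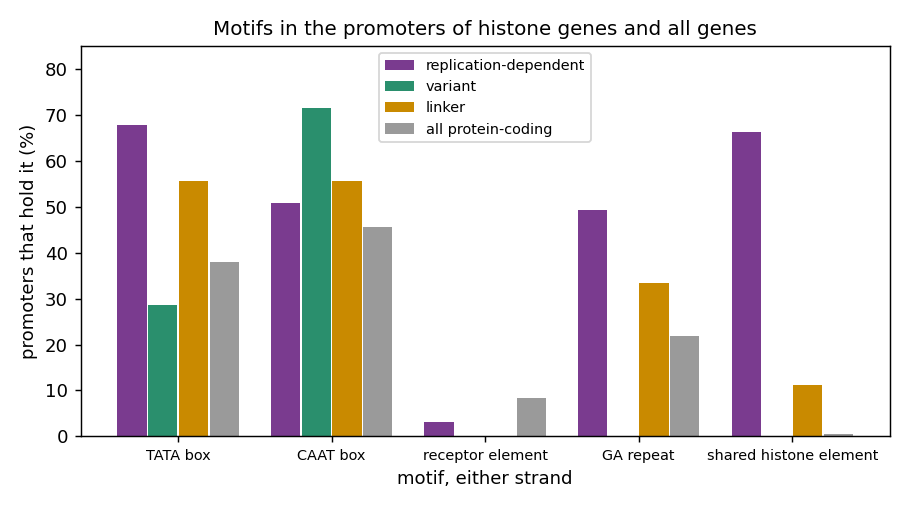
Share of promoters (%, 250 bp before to 50 bp after the 5' end) with each motif on either strand, for replication-dependent, variant and linker histone genes and for all protein-coding genes. The shared histone element is GGGGACAC, which stands at 66.2% of replication-dependent promoters and 0.536% of all. Identical promoter copies and shared spacers count several times.

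Some regions at histone genes lay near other features too. Of the 28 pooled regions within 1000 bp of a histone gene, 4 served more than 1 histone gene, 10 had the 5' end of another protein-coding gene within 1000 bp, and 6 lay nearer to that gene. An RNA gene lay within 200 bp of 5 of them. The summit lay in a region of both replicates for 4, those at his-67/his-68, his-71, htz-1 and his-72.

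Genes that handle histones were counted the same way. Of 17 genes for histone mRNA processing, histone chaperones, chromatin remodelers, centromeric H3 and a histone acetyltransferase, 10 (58.8%) had a pooled summit against 51% of all genes, 6 (35.3%) a replicate 1 summit against 29.9%, and 5 (29.4%) a replicate 2 summit against 11.8%. Both replicates had one at 2 genes, lin-53 and xnp-1 (11.8% against 6.74% of all genes). At lin-53, which encodes an RbAp-type histone-binding protein, signal was 31.55 pooled, 13.99 in replicate 1 and 19.19 in replicate 2. At xnp-1, an ATRX-type remodeler gene, it was 23.95, 11.56 and 17.74 in the same order. The xnp-1 summits lay 413, 279 and 955 bp upstream in the pooled, replicate 1 and replicate 2 lists, so its replicate regions were apart, while the replicate summits at lin-53 lay 202 and 368 bp upstream. The FACT subunit gene spt-16 had 25.07 pooled and 21.35 in replicate 1, and hcp-3, for centromeric H3, had 22.35 at 266 bp and 13.28 at 960 bp upstream. The stem-loop binding protein gene cdl-1 had only a replicate 2 region, of 14.07. None of the 17 was in the IDR list, against 0.801% of all genes. The 58 cytosolic ribosomal protein genes are another set with high and coordinated expression. Of these, 53 (91.4%) had a pooled summit against 51% of all genes, and 6 (10.3%) an IDR summit against 0.801%. Their median share of 36-mers occurring once was 100%.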

How the data were processed

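ChIP-seq of eGFP-tagged NHR-28 was measured in 2 libraries of 1 group. Per the labels' text records, the authors called regions on ce11 alignments against a control, for each replicate and for both pooled, and derived the IDR list from these. Each deposited region has a signal value, the authors' strength against the control, and in the replicate lists a q-value that the authors wrote as −log10. No aligner, peak caller, cutoff, read length or read total is given in the sources used here, so no interval for depth can be set. Lists on ce10 were not used.

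Genes came from Ensembl release 115 (WBcel235). Ensembl repeats 1 name over identical copies, so RefSeq symbols of the same WormBase ID were used for all 81 genes. A gene's class came from the transcript whose protein was closest to his-3, his-4, his-2 or his-1. Its kind (replication-dependent, variant or linker) came from its symbol. Summits were joined to 5' ends within 1000 bp, and k-mers of 36 and 50 bases were counted on both strands, with Python 3.11.15, pandas 2.3.3 and Biopython 1.88. The joins were tested on simulated data. Spacers are compared by identity over the shorter one. Printed sequences were read from the RefSeq genome of WBcel235. No test between groups was possible, and no p-value is given.

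The genes named are all those with an IDR summit, those in both replicates, the variant and linker genes, the strongest and emptiest clusters and the list of 17 genes. Other histone genes are named after their values were seen. Members, lists and bins were chosen with earlier results of these data known. Alternatives cover the window, the 5' ends, overlap, the nearest gene, signal and q-value limits, each replicate alone and repeated sequence.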

Additional observations from a re-analysis of the deposited data

How the results depend on the processing

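The pooled count of 22 histone genes ran from 15 to 32 over windows of 500 and 2000 bp, any transcript 5' end, overlap of the region and the nearest gene alone, and stayed below the share of all genes in each. With the 5000 strongest pooled regions it was 9 genes (11.1% against 13% of all genes), and with summits in a region of both replicates it was 5 (6.17% against 4.77%), so with these the share was near or above that of all genes. From 1 replicate alone it ran from 10 to 16 genes, 12.3% against 11.8% in replicate 2 and 19.8% against 29.9% in replicate 1. Counting only genes with at least 95% of 36-mers occurring once, chosen after seeing the data, gave 14 of 14 in the pooled list (54.8% of all such genes). Replicate 1 gave 9 (64.3% against 32.7%), replicate 2 gave 7 (50% against 12.9%) and both gave 4 (28.6% against 7.63%). Within 2000 bp the IDR count was 3 (3.7% against 1.31% of all genes), adding his-35 and his-41 by the same region. The replicate 1 count within 2000 bp was 26, or 32.1%, below the 46.6% of all genes. With IDR signal above the median the IDR count was 0, against 0.295% of all genes. With the 238 strongest regions of 1 replicate in place of the IDR list the count was 1 (1.23%) either way. It was htz-1 from replicate 2, against 0.771% of all genes, and his-37 from replicate 1, against 0.706%. With a q-value of 0.05 or less the counts were 2 in replicate 1 (hil-7 and his-37, 2.47% against 1.15% of all genes), 1 in replicate 2 (htz-1, 1.23% against 0.756%) and 0 in both (0.486% of all genes). The replicate 2 count was 6 (7.41%) within 500 bp and by the nearest gene alone, against 7.53% and 9.52% of all genes. The nearest gene alone left 3 genes in both replicates (3.7% against 4.96%), below the share of all genes. It also left 3 of 7 variant genes in the pooled list (42.9% against 45.2%). Apart from these settings' own narrower or wider limits, the cause of these moves was not tested.

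No paired analysis was possible because the 2 libraries belong to 1 group. Depth is unknown, and a missing region does not show that NHR-28 is absent from a histone gene. The part of repeated sequence, and of 5' ends annotated at start codons, in these counts was not tested.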
